A study of Homo sapiens with 9 samples.

Results

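The transcripts described here are those of 10 S100A genes, which encode small calcium-binding proteins: S100A2, S100A4, S100A6, S100A7, S100A8, S100A9, S100A10, S100A11, S100A14 and S100A16. They are 10 of the 18064 rows of a deposited RNA sequencing table and were found by gene identifier. The members were chosen from levels in the same 9 libraries that were already known, so their differences between the groups are a description and carry no test. By their titles, the libraries are of MDA-MB-231/PTX cells, a paclitaxel-resistant line made from MDA-MB-231, a triple-negative breast cancer line. The titles put 3 libraries in the group si1-BCLIN25 and 3 in si2-BCLIN25, each with an siRNA against the RNA BCLIN25, and 3 in si-NC, with a control siRNA. Other fields of the same labels instead name PC9/GR, a lung adenocarcinoma line resistant to gefitinib, with shRNAs against HUMT (sh1-HUMT and sh2-HUMT) and the control shNC. The labels therefore leave the cell line, the targeted RNA and the means of knockdown in conflict, and BCLIN25 itself was not analysed here. Cells of every group were grown in RPMI medium with 10% FBS, per the labels.

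S100 proteins form dimers and carry paired EF-hand loops, and in most of them calcium binding opens a surface that grips a partner protein. Inside cells they bind annexins, the cytoskeleton and transcription factors, and several are also secreted and act on receptors such as RAGE (encoded by AGER) and TLR4. Most S100A genes lie together on chromosome 1 beside the genes of the cornified envelope, the protein shell of mature keratinocytes. S100A8 and S100A9 pair as calprotectin, a metal-binding complex that is abundant in neutrophils and is made by keratinocytes in inflamed skin.

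Levels are FPKM, in which fragments are divided by transcript length and by the mapped total, so they may be compared between genes. The FPKM of a library summed to between 394081 and 419025. Between 12091 and 12111 genes reached 1 FPKM in si1-BCLIN25 libraries, 12113 to 12139 in si2-BCLIN25 libraries and 11812 to 11856 in si-NC libraries. Depth is unknown. Nothing in the labels tells whether the replicates came from separate cultures, so the p-values reflect the spread of these 9 libraries alone, and that spread may be technical. The si-NC columns have a prefix in their names, absent from the siRNA columns and not explained, and separate handling and the group cannot be told apart. In bulk RNA, fewer cells that express a gene and less of its RNA per cell cannot be told apart either.

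Calprotectin transcripts were high in both siRNA groups, and S100A7 was higher in the same libraries. S100A9 had 2301, 2509.5 and 2556 FPKM in si1-BCLIN25 libraries and 1955, 1993 and 1955 FPKM in si2-BCLIN25 libraries, against 534, 481 and 493 FPKM in si-NC libraries. Every siRNA library was above every si-NC library, and the groups did not overlap. The mean was 4.88-fold the si-NC mean in si1-BCLIN25 and 3.91-fold in si2-BCLIN25. Among all rows of the table, S100A9 ranked 4 to 5 by level in si1-BCLIN25 libraries and 5 to 6 in si2-BCLIN25 libraries, against 96 to 110 in si-NC libraries.

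S100A8, the partner chain, had 191, 203 and 197 FPKM in si1-BCLIN25 libraries and 135, 142 and 139 FPKM in si2-BCLIN25 libraries, against 8.58, 7.09 and 6.33 FPKM in si-NC libraries. The 3 groups stood apart, with si1-BCLIN25 the highest and si-NC the lowest. The mean was 26.9-fold the si-NC mean in si1-BCLIN25 and 18.9-fold in si2-BCLIN25. By RefSeq gene spans S100A8 overlaps S100A7A, and whether counting used strand is not given in the sources used here. S100A7A was at most 0.35 FPKM in any library.

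S100A8 stayed far below S100A9 in every library, but the gap was smaller in the siRNA groups. The FPKM ratio of S100A8 to S100A9 was 0.0832, 0.0809 and 0.0771 in si1-BCLIN25 libraries and 0.0689, 0.0712 and 0.0713 in si2-BCLIN25 libraries, against 0.0161, 0.0147 and 0.0128 in si-NC libraries. The groups did not overlap, and the ratio was highest in si1-BCLIN25. S100A9 made up 38.15% ± 0.597 of the summed FPKM of the 10 genes in si1-BCLIN25 and 33.79% ± 0.373 in si2-BCLIN25, against 11.47% ± 0.496 in si-NC (SD, n = 3 each).

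**Figure D1:**
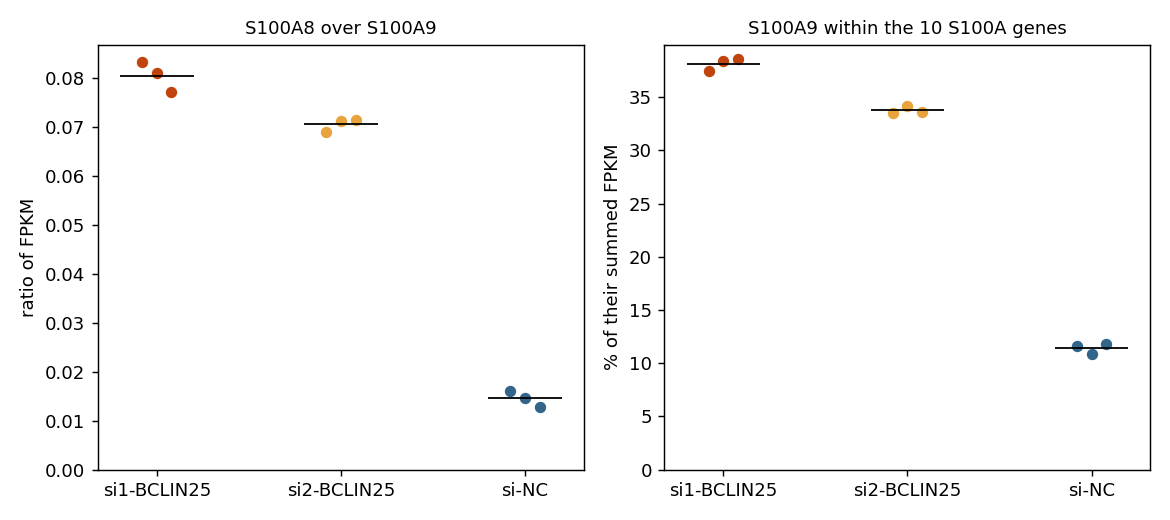
Left, the ratio of S100A8 to S100A9 FPKM in each library; right, S100A9 as a percentage of the summed FPKM of the 10 S100A genes, with points for libraries and lines for the means of 3. Both quantities are highest in si1-BCLIN25, next in si2-BCLIN25 and lowest in si-NC, with no overlap (mean S100A9 share 38.15%, 33.79% and 11.47%).

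S100A7, psoriasin, is an antimicrobial protein of inflamed epidermis. It had 15.4, 18.1 and 23.3 FPKM in si1-BCLIN25 libraries and 15.9, 14.3 and 16.9 FPKM in si2-BCLIN25 libraries, against 0.55, 0.28 and 0.41 FPKM in si-NC libraries. The siRNA groups overlapped each other, and neither overlapped si-NC. Their means were 45.8-fold and 38.0-fold the si-NC mean, in si1-BCLIN25 and si2-BCLIN25. S100A7 was the only member under 1 FPKM in every si-NC library, so it passed the filter on low values through the siRNA libraries, and reads may be shared with its near-identical copy S100A7A.

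S100A14, an epithelial S100 protein, had 9.0, 9.67 and 9.41 FPKM in si1-BCLIN25 libraries and 11.9, 12.8 and 11.2 FPKM in si2-BCLIN25 libraries, against 2.2, 1.35 and 2.52 FPKM in si-NC libraries. Here si2-BCLIN25 was the highest, and the groups did not overlap. Its mean was 4.63-fold the si-NC mean in si1-BCLIN25 and 5.90-fold in si2-BCLIN25.

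S100A4, which binds nonmuscle myosin and is known for its link to metastasis, had 6.77, 9.24 and 12.8 FPKM in si1-BCLIN25 libraries and 7.82, 7.56 and 7.92 FPKM in si2-BCLIN25 libraries, against 3.01, 3.67 and 2.75 FPKM in si-NC libraries. Both siRNA groups lay above si-NC, and the si1-BCLIN25 libraries spread widely around the tight si2-BCLIN25 values. The means were 3.05-fold and 2.47-fold the si-NC mean, in si1-BCLIN25 and si2-BCLIN25. By RefSeq spans S100A4 overlaps S100A5, which was below 1 FPKM in every library.

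Some of the most abundant members differed less from si-NC than the members above. S100A6, calcyclin, a partner of the ubiquitin ligase adaptor CACYBP, had 693, 712 and 794 FPKM in si1-BCLIN25 libraries and 724, 707 and 722 FPKM in si2-BCLIN25 libraries, against 589, 556 and 525 FPKM in si-NC libraries. Both siRNA groups were above si-NC with no overlap, at 1.32-fold and 1.29-fold of its mean, in si1-BCLIN25 and si2-BCLIN25.

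S100A11, a partner of annexin A1 with a role in keratinocyte growth, had 1469, 1490.5 and 1436 FPKM in si1-BCLIN25 libraries and 1452, 1411 and 1437 FPKM in si2-BCLIN25 libraries, against 1385, 1410.5 and 1267 FPKM in si-NC libraries. Each siRNA group lay just above si-NC without overlapping it, and the siRNA groups overlapped each other. On the log2(FPKM + 1) scale, S100A11 was 0.11 ± 0.05 higher in si1-BCLIN25 than in si-NC (SE), and -0.09 under quantile normalization, which reverses its direction. In si2-BCLIN25 the difference was 0.08 ± 0.05 (SE), and -0.06 under quantile normalization. Without si-NC replicate 3 it was 0.07 in si1-BCLIN25, and the gene was not called there without that library or without any one siRNA library.

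Lower levels in both siRNA groups were found for S100A2, S100A10 and S100A16. S100A2, found mostly in the nuclei of basal squamous cells, had 957, 1012 and 1056 FPKM in si1-BCLIN25 libraries and 981, 993 and 958 FPKM in si2-BCLIN25 libraries, against 1298, 1236 and 1155 FPKM in si-NC libraries. Every siRNA library was below every si-NC library. The means were 0.820 and 0.795 of the si-NC mean, in si1-BCLIN25 and si2-BCLIN25.

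S100A10, or p11, does not bind calcium and forms a complex with annexin A2 that serves as a plasminogen receptor. It had 340, 399 and 396 FPKM in si1-BCLIN25 libraries and 391, 381 and 407 FPKM in si2-BCLIN25 libraries, against 561, 496 and 501 FPKM in si-NC libraries. The siRNA libraries were all lower, at 0.728 and 0.757 of the si-NC mean, in si1-BCLIN25 and si2-BCLIN25. The FPKM ratio of S100A10 to its partner ANXA2 was 0.207 ± 0.0157 in si1-BCLIN25 and 0.212 ± 0.00329 in si2-BCLIN25, against 0.264 ± 0.0122 in si-NC (SD, n = 3 each). ANXA2 itself averaged 1823 FPKM in si1-BCLIN25 and 1858 FPKM in si2-BCLIN25, against 1965 FPKM in si-NC.

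S100A16, a widely expressed member, had 159, 166 and 149 FPKM in si1-BCLIN25 libraries and 162, 164 and 158 FPKM in si2-BCLIN25 libraries, against 198, 220.1 and 211 FPKM in si-NC libraries. Both siRNA groups were lower without overlap, at 0.755 and 0.768 of the si-NC mean, in si1-BCLIN25 and si2-BCLIN25.

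**Figure D2:**
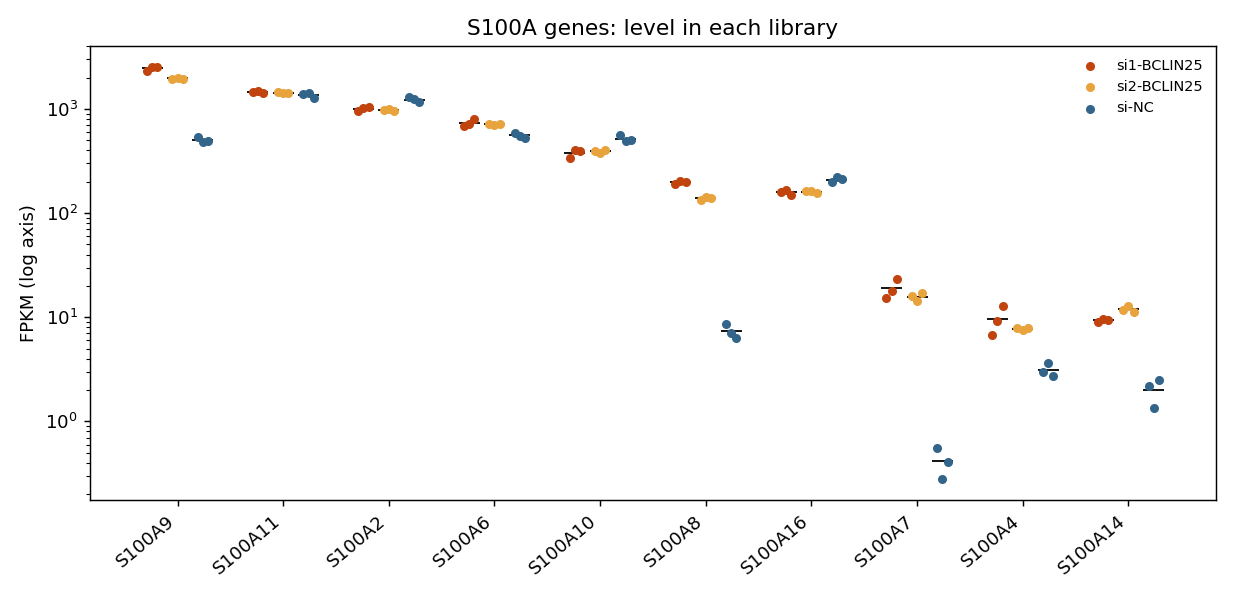
FPKM (log axis) of the 10 S100A genes in each library, with a bar at the mean of 3 libraries per group, si1-BCLIN25 left of si2-BCLIN25 and si-NC. S100A9, S100A8, S100A7, S100A14 and S100A4 are set well above si-NC in both siRNA groups, S100A2, S100A10 and S100A16 are lower, and S100A11, whose direction flips under quantile normalization, is nearly level.

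The order of the genes by level differed between the groups as described. In si1-BCLIN25, S100A9 came first, followed by S100A11, S100A2, S100A6, S100A10, S100A8, S100A16 and S100A7, and then S100A4 and S100A14, whose libraries overlapped. In si2-BCLIN25 the order was S100A9, S100A11, S100A2, S100A6, S100A10, S100A16, S100A8, S100A7, S100A14 and S100A4, with no overlap between neighbours. In si-NC, S100A11 and S100A2 came first and overlapped, then S100A6, S100A10 and S100A9, in which each neighbouring pair overlapped, then S100A16, S100A8, S100A4, S100A14 and S100A7 apart from one another. The 10 genes summed to 6433 ± 258 FPKM in si1-BCLIN25 and 5825 ± 12 FPKM in si2-BCLIN25, against 4386 ± 208 FPKM in si-NC (SD, n = 3 each).

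Across the table, a gene was called where limma's Benjamini-Hochberg adjusted p, over the 12317 genes that reached 1 FPKM in 3 or more libraries, was under 0.05. All 10 members passed that filter. In si1-BCLIN25 against si-NC, 7 members were called higher and 3 lower, beside 38.4% and 24.6% of all genes tested. In si2-BCLIN25 against si-NC, 6 were called higher and 3 lower, beside 38.6% and 24.4% of all genes tested, with S100A11 not called. For each of the 10 members, si1-BCLIN25 and si-NC libraries did not overlap, nor did si2-BCLIN25 and si-NC libraries, beside 64.7% and 67.1% of all genes tested. The members' median log2 difference was 0.86 in si1-BCLIN25 and 0.73 in si2-BCLIN25, against medians of 0.06 and 0.06 over all genes. The members were chosen with these contrasts known, and both share the si-NC libraries, so nothing is read from the counts.

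The levels in the siRNA groups were also among the values known when the members were chosen, so the differences between si1-BCLIN25 and si2-BCLIN25 are likewise a description, given with the interval from the fit and no p. S100A8 was higher in si1-BCLIN25 than in si2-BCLIN25 by 0.51 on the log2(FPKM + 1) scale (95% interval 0.34 to 0.67), or 1.42-fold by mean FPKM. S100A9 was higher in si1-BCLIN25 by 0.32 (95% interval 0.21 to 0.43). For both genes, each of the 3 si1-BCLIN25 libraries was above each of the 3 si2-BCLIN25 libraries. By the same rule as above these 2 members were called higher and 0 lower, beside 0.309% and 0.276% of all genes tested, and nothing is read from that count. Neither S100A8 nor S100A9 was called when replicate 2 or 3 of si1-BCLIN25, or any one library of si2-BCLIN25, was left out. Without one of these libraries the difference was 0.48 to 0.52 for S100A8 and 0.29 to 0.33 for S100A9. Under quantile normalization S100A9 was higher by 0.14 and was not called.

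S100A14 went the other way, with all si1-BCLIN25 libraries below all si2-BCLIN25 libraries. Its difference of -0.32 (95% interval -0.57 to -0.07) was not called. The libraries of 3 of the 10 members, S100A8, S100A9 and S100A14, did not overlap between the siRNA groups, beside 25.9% of all genes tested. S100A7 had a difference of 0.24 (95% interval -0.03 to 0.50) and S100A4 one of 0.23 (95% interval -0.10 to 0.57), both with wide intervals that hold 0. For S100A2, S100A6, S100A10, S100A11 and S100A16 the differences lay between -0.06 and 0.04, and the lowest and highest bounds of their 95% intervals were -0.20 and 0.15. Intervals that hold 0 do not show that the siRNA groups were alike.

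**Figure D3:**
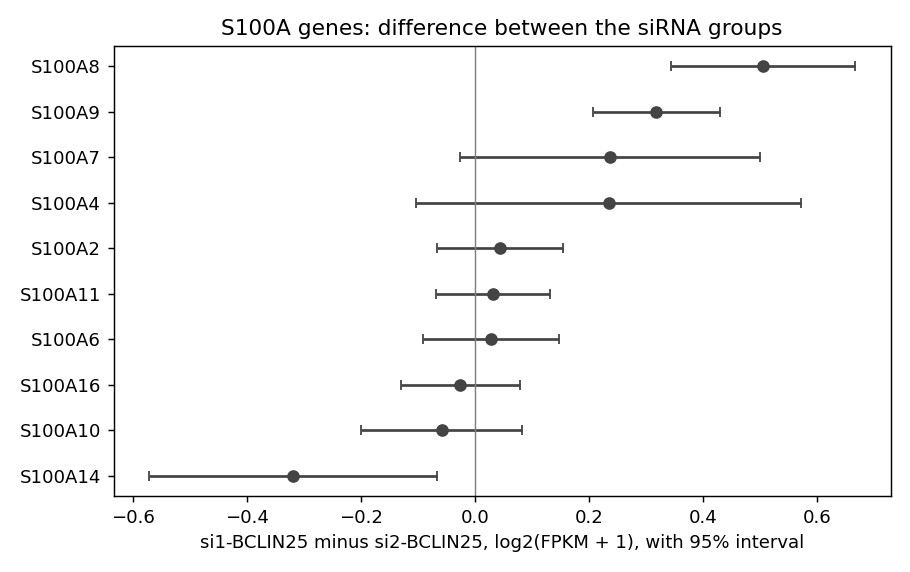
Difference of si1-BCLIN25 minus si2-BCLIN25 in log2(FPKM + 1) for each S100A gene, with its 95% interval from limma. S100A8 (0.51) and S100A9 (0.32) lie to the right of 0, S100A14 (-0.32) to the left, and the intervals of the other 7 genes hold 0.

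The promoters were searched for an exact form of a core promoter element, the TATA box, which is described apart from the members' levels. A search for TATAAA, on the sense strand, in the 250 bases before each RefSeq start (GRCh38.p14) found it for 4 of the 10 genes, S100A9, S100A8, S100A7 and S100A4. By windows, it was found in 5 of the members' 14 and in 6.8% of all such windows in the reference. Windows without it are described only by the absence of these letters, which does not show that a TATA box is lacking. S100A14 and S100A6 hold the similar letters tataag within the 50 bases before the start. Its first base lay 29 bases before the start for S100A9, 29 for one start of S100A8, 28 for S100A7 and 31 for S100A4. The 50 bases directly before the start follow, 5′ to 3′ on the gene's strand with TATAAA in capitals, for these 4 genes and, with no match, for S100A14, whose level differed from si-NC by more than that of S100A4, and S100A10.
S100A9 (plus strand, chr1:153357804-153357853): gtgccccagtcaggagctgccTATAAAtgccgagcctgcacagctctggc
S100A8 (minus strand, chr1:153391074-153391123): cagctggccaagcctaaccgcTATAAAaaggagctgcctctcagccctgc
S100A7 (minus strand, chr1:153460652-153460701): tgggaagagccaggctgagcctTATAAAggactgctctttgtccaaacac
S100A4 (minus strand, chr1:153545807-153545856): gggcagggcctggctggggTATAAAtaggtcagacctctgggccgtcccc
S100A14 (minus strand, chr1:153616326-153616375): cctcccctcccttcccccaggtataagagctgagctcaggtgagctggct
S100A10 (minus strand, chr1:151993860-151993909): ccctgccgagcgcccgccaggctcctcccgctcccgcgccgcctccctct

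Other patterns were searched on both strands of the same windows. The AP-1 pattern TGANTCA was found for 1 of the 10 genes, S100A2, in 1 of the members' 14 windows and in 6.6% of all windows. The C/EBP pattern TTNNGNAA was found for 5 of 10 (6 of 14 windows, 33.2% of all windows). The GC box GGGCGG was found for 5 of 10, namely S100A10, S100A11, S100A9, S100A6 and S100A16 (5 of 14 windows, 42.6% of all windows). The NF-kB pattern (GGG, 5 free bases, then CC) was found for 9 of 10 (10 of 14 windows, 54.4% of all) and the E-box CANNTG for 8 of 10 (12 of 14 windows, 61.8% of all). The GC box and NF-kB patterns can share bases, genes with several starts had several chances of a match, and a match is no evidence of binding.

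In RefSeq order, 48 rows of the table lie from S100A10 to S100A14 on chromosome 1, of which 38 are not members. Most of these are silent here, with 27 below 1 FPKM in every library. Of the 10 tested, 8 were called higher and 1 lower in si1-BCLIN25 than in si-NC, with 7 higher and 1 lower in si2-BCLIN25. PGLYRP4, SPRR1A and SPRR3, each called higher in si1-BCLIN25, were below 1 FPKM in every si-NC library. They passed the filter only through siRNA libraries, so nothing is read from these counts. Over all genes tested, the shares called higher and lower were 38.4% and 24.6% in si1-BCLIN25 and 38.6% and 24.4% in si2-BCLIN25, which are also the background of the list counts that follow. With so few genes in each list, those counts are given as a description. The lists were chosen with earlier results of these data known, and most genes named from them have the largest differences from si-NC. Their adjusted p-values are therefore also a description and no independent support. IVL, the cornified envelope precursor involucrin, averaged 6.09 FPKM in si1-BCLIN25 and 5.30 FPKM in si2-BCLIN25, against 1.59 FPKM in si-NC. SPRR1B, a small proline-rich envelope protein, averaged 33.3 FPKM in si1-BCLIN25 and 22.7 FPKM in si2-BCLIN25, against 12.4 FPKM in si-NC.

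PGLYRP4, a peptidoglycan recognition protein, lies next to S100A9 among tested genes and averaged 1.5 FPKM in si1-BCLIN25 and 1.19 FPKM in si2-BCLIN25, against 0.0667 FPKM in si-NC. The log2 differences from si-NC of SPRR1A and SPRR2D, further envelope proteins, were 0.78 and 0.64 in si1-BCLIN25 and 0.44 and 0.35 in si2-BCLIN25. The gene that fell was SPRR2A, named after its values were seen, at 1.99 FPKM in si1-BCLIN25 and 1.70 FPKM in si2-BCLIN25, against 2.74 FPKM in si-NC. The direction was not shared along the cluster: S100A2 and S100A16, both lower in the siRNA groups, are neighbours among the tested genes, and S100A14, higher in both, lies beside S100A16.

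**Figure D4:**
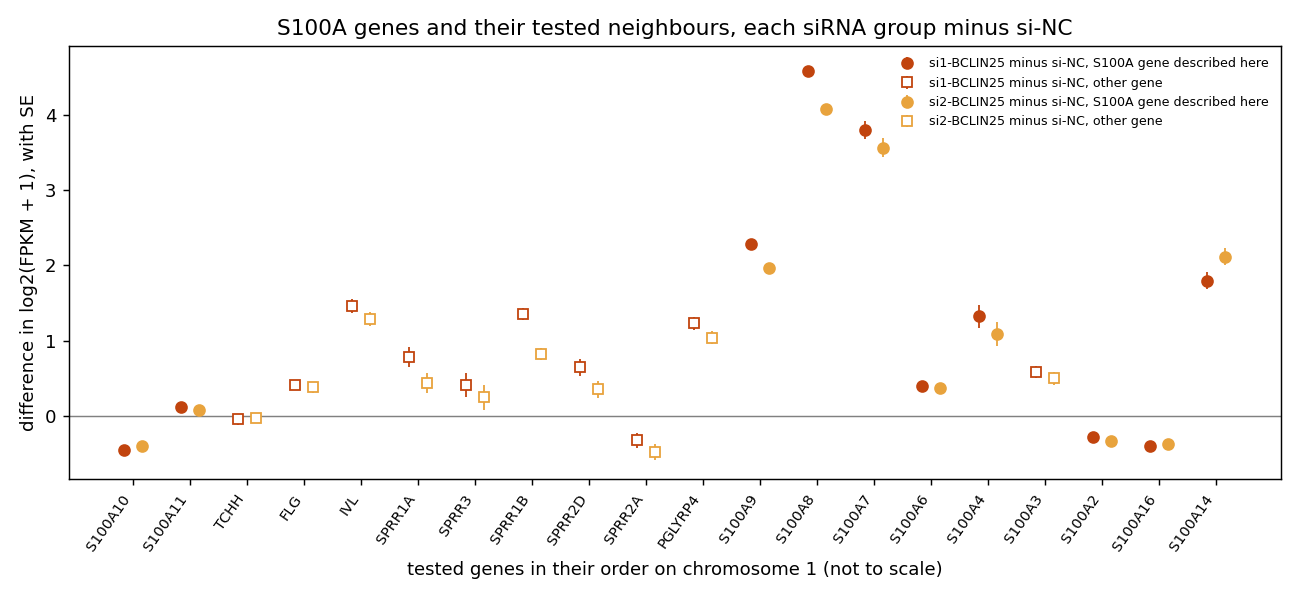
Difference from si-NC in log2(FPKM + 1), with its SE, of si1-BCLIN25 and si2-BCLIN25 for the 20 tested genes from S100A10 to S100A14 in RefSeq order (spacing not to scale), filled circles for the 10 members and open squares for others. S100A9, S100A8 and S100A7, which stand side by side, and S100A14, at the far end, lie well above 0 in both siRNA groups, and S100A2, S100A16 and S100A10 lie below 0; S100A11 lies just above 0 and falls below it under quantile normalization.

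Of 11 listed S100 genes outside the members, 10 had a row and 2 were tested. S100A3, a hair cuticle protein encoded between S100A4 and S100A2, averaged 18.0 ± 2.22 FPKM in si1-BCLIN25 and 16.9 ± 1.07 FPKM in si2-BCLIN25, against 11.6 ± 1.05 FPKM in si-NC (SD, n = 3 each), and rose by 0.58 and 0.50 on the log2 scale (limma adjusted p = 6.66e-05 and 0.000232). S100A13, which takes part in the release of FGF1, averaged 76.8 ± 4.57 FPKM in si1-BCLIN25 and 76.2 ± 5.10 FPKM in si2-BCLIN25, against 95.2 ± 4.43 FPKM in si-NC. It fell by 0.31 and 0.32 (limma adjusted p = 0.000444 and 0.000344). The other 8, S100A1, S100A5, S100A7A, S100A7L2, S100A12, S100G, S100P and S100Z, missed the filter and reached at most 1.08 FPKM in any library. S100A12, the third calgranulin of neutrophils, averaged 0.753 FPKM in si1-BCLIN25 and 0.840 FPKM in si2-BCLIN25, and was listed at 0 in all 3 si-NC libraries.

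Fused S100 proteins carry an S100 domain at the head of a long repeat protein of the epidermis. Of 7 listed, 2 were tested: FLG (filaggrin) rose to 2.05 FPKM in si1-BCLIN25 and 1.99 FPKM in si2-BCLIN25, against 1.3 FPKM in si-NC (limma adjusted p = 0.0002 and 0.000363). TCHH (trichohyalin) was not called in either, at 1.5 and 1.54 FPKM in si1-BCLIN25 and si2-BCLIN25, against 1.58 FPKM in si-NC.

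Annexins, membrane-binding proteins that many S100 dimers bridge, moved in both directions. Of 14 listed annexin and AHNAK genes, 12 were tested. Against si-NC, si1-BCLIN25 had 7 higher and 4 lower, and si2-BCLIN25 had 9 higher and 2 lower. ANXA9, called higher in both, was below 1 FPKM in every si-NC library and passed the filter only through siRNA libraries. AHNAK2 averaged 19.3 FPKM in si1-BCLIN25 and 20.9 FPKM in si2-BCLIN25, against 8.92 FPKM in si-NC (limma adjusted p = 5.6e-10 and 2.41e-10). ANXA11, a partner of S100A6, rose to 60.7 FPKM in si1-BCLIN25 and 55.8 FPKM in si2-BCLIN25, against 36.0 FPKM in si-NC. ANXA6 rose to 13.4 and 14.3 FPKM, in si1-BCLIN25 and si2-BCLIN25, against 8.04 FPKM in si-NC. ANXA5 fell to 182 FPKM in si1-BCLIN25 and 209 FPKM in si2-BCLIN25, against 288 FPKM in si-NC. In si1-BCLIN25 against si2-BCLIN25, 0 of these genes rose and 2 fell, beside 0.309% and 0.276% of all genes tested, ANXA5 by 0.20 and AHNAK by 0.26 (limma adjusted p = 0.0278 and 0.0416). AHNAK was named after its values were seen. Neither was called without si1-BCLIN25 replicate 2 or 3 or any one si2-BCLIN25 library, nor was FOSL1, described below.

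All 7 genes of a list of other S100 partners were tested. Of these, 5 were called lower in si1-BCLIN25 than in si-NC, as were 5 in si2-BCLIN25. The list is mostly of intracellular proteins, but PLAUR lies on the cell surface and PLAT is secreted. PLAUR, the urokinase receptor, fell to 31.5 FPKM in si1-BCLIN25 and 31.0 FPKM in si2-BCLIN25, against 76.6 FPKM in si-NC (limma adjusted p = 2.69e-10 and 2.56e-10). PLAT, the tissue plasminogen activator that S100A10 binds, fell to 7.98 FPKM in si1-BCLIN25 and 7.68 FPKM in si2-BCLIN25, against 11.5 FPKM in si-NC. IQGAP1, a scaffold bound by several S100 proteins, averaged 78.5 FPKM in si1-BCLIN25 and 84.7 FPKM in si2-BCLIN25, against 106 FPKM in si-NC.

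The receptors of secreted S100 proteins include TLR4, the calprotectin receptor, which fell while its ligand transcripts were high. TLR4 had 2.18, 2.11 and 2.13 FPKM in si1-BCLIN25 libraries and 2.11, 2.44 and 1.93 FPKM in si2-BCLIN25 libraries, against 13.8, 13.3 and 14.6 FPKM in si-NC libraries. It was far lower in both siRNA groups with no overlap, by -2.25 and -2.24 on the log2(FPKM + 1) scale (limma adjusted p = 2.91e-11 and 3.26e-11). BSG, a receptor of S100A9, rose to 380.0 FPKM in si1-BCLIN25 and 359 FPKM in si2-BCLIN25, against 235 FPKM in si-NC. AGER, encoding RAGE, was low throughout, at 1.203 FPKM in si1-BCLIN25 (not called) and 1.34 FPKM in si2-BCLIN25 (called higher), against 0.893 FPKM in si-NC. It was below 1 FPKM in every si-NC library and passed the filter only through siRNA libraries. ALCAM was at 144 FPKM in si1-BCLIN25 (not called) and 159 FPKM in si2-BCLIN25 (called higher), against 137 FPKM in si-NC. Of 8 listed receptors, 6 were tested. In si1-BCLIN25, 1 was called higher and 1 lower, against 5 higher and 1 lower in si2-BCLIN25, each set against si-NC. In si1-BCLIN25 against si2-BCLIN25, 0 of the 6 were called higher and 0 lower, beside 0.309% and 0.276% of all genes tested. That does not show that the siRNA groups were alike, and whether the counts against si-NC differ was not tested.

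Of 22 listed transcription factors of squamous and inflamed epithelium, 20 were tested. Set against si-NC, 11 were called higher and 5 lower in si1-BCLIN25, with 12 higher and 7 lower in si2-BCLIN25. ELF3, an epithelial ETS factor, rose to 37.0 FPKM in si1-BCLIN25 and 37.4 FPKM in si2-BCLIN25, against 5.51 FPKM in si-NC (limma adjusted p = 1.63e-12 and 1.76e-12). CEBPA rose to 4.44 and 4.22 FPKM, in si1-BCLIN25 and si2-BCLIN25, against 1.11 FPKM in si-NC. JUNB rose to 47.1 FPKM in si1-BCLIN25 and 45.3 FPKM in si2-BCLIN25, against 18.0 FPKM in si-NC. FOSL1, an AP-1 subunit, fell to 31.5 FPKM in si1-BCLIN25 and 37.6 FPKM in si2-BCLIN25, against 186 FPKM in si-NC, and was lower in si1-BCLIN25 than in si2-BCLIN25 by -0.25 (limma adjusted p = 0.0207).

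Markers of the cells in which these S100 genes are best known were read in the same libraries. Of 12 myeloid markers, 9 had a row, and their summed level was 6.42 to 7.02 FPKM in si1-BCLIN25 and 6.58 to 7.42 FPKM in si2-BCLIN25, against 5.81 to 6.47 FPKM in si-NC. The neutrophil and myeloid genes SPI1, CSF3R, MPO and ELANE were below 0.1 FPKM in every library. CD14, a monocyte marker, averaged 1.07 FPKM in si1-BCLIN25 and 1.10 FPKM in si2-BCLIN25, against 0.33 FPKM in si-NC. It was below 1 FPKM in every si-NC library and passed the filter only through siRNA libraries. As it was also named after its values were seen, no p is read for CD14. CSF1R, not tested, averaged 0.25 FPKM in si1-BCLIN25 and 0.2 FPKM in si2-BCLIN25, against 0.0833 FPKM in si-NC. PTPRC, LYZ and CD68 were not called in either comparison. The 12 keratinocyte markers summed to 2126 to 2275 FPKM in si1-BCLIN25 and 2054 to 2056 FPKM in si2-BCLIN25, against 688 to 723 FPKM in si-NC. In every library 11 of the 12 reached 1 FPKM in both siRNA groups and 9 of 12 in si-NC. KRT5, a basal keratin, averaged 1318 FPKM in si1-BCLIN25 and 1210 FPKM in si2-BCLIN25, against 199 FPKM in si-NC. KRT1, a marker of terminally differentiated keratinocytes, was below 0.1 FPKM in every library. Their part in the S100A levels was not tested.

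As a check of the labelled cells, 8 epithelial markers summed to 2432 to 2627 FPKM in si1-BCLIN25 and 2384 to 2472 FPKM in si2-BCLIN25, against 1694 to 1775 FPKM in si-NC, with all 8 at 1 FPKM or more in every library. KRT19 weighed most in that sum, at 1665 FPKM in si1-BCLIN25 and 1555 FPKM in si2-BCLIN25, against 688 FPKM in si-NC. CDH1, ESRP1 and GRHL2 were also called higher in both siRNA groups, while EPCAM, KRT8, KRT18 and CLDN4 were called lower in both. The 10 markers of MDA-MB-231 summed to 675 to 696 FPKM in si1-BCLIN25 and 735 to 749 FPKM in si2-BCLIN25, against 1529 to 1545 FPKM in si-NC, with 9 of 10 at 1 FPKM or more. The missing one was ZEB1, a mesenchymal transcription factor, at most 0.14 FPKM in any library. In si-NC, the epithelial genes EPCAM, CDH1 and ESRP1 averaged 139, 31.7 and 53.4 FPKM, beside 80.9 FPKM of VIM and 208 FPKM of CD44. Levels of 1 FPKM or more do not identify a line, so the 9 of 10 is no sign that the titles name the right one. The near absence of ZEB1 and the levels of these epithelial genes leave the line in the titles in doubt. Which line the libraries came from was not tested. MMP1 carried most of the fall in the sum, at 5.99 FPKM in si1-BCLIN25 and 5.42 FPKM in si2-BCLIN25, against 570.1 FPKM in si-NC. VIM, MSN, AXL, CD44 and FOSL1 also fell in both siRNA groups. LGALS1 went the other way, at 149 FPKM in si1-BCLIN25 and 164 FPKM in si2-BCLIN25, against 33.6 FPKM in si-NC, and CAV1 rose to 366 and 382 FPKM, in si1-BCLIN25 and si2-BCLIN25, against 282 FPKM in si-NC. Of 8 lung adenocarcinoma markers, 7 had a row, and these summed to at most 3.21 FPKM in any library, with SFTPC and SFTPA2 below 0.1 FPKM. The 7 fibroblast markers summed to 27.8 to 29.6 FPKM in si1-BCLIN25 and 26.8 to 28.5 FPKM in si2-BCLIN25, against 15.2 to 16.5 FPKM in si-NC, with COL1A2 and COL3A1 below 0.1 FPKM. None of the listed markers with a row was at exactly 0 in every library.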

How the data were processed

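The deposited values are FPKM computed by the authors, per the file headers, in 9 libraries sequenced on BGI500 from Trizol RNA, per the labels' protocols. The tools in the submitters' processing notes, given with no role or order, are RSEM 1.2.12, DESeq2 1.4.5, HISAT2 2.0.4 and Bowtie2 2.2.5. The build is not given in the sources used here, nor the annotation. Of 18064 rows, 17748 matched a RefSeq symbol. Depth is unknown: for 49 low genes 17.5% of values were whole multiples of one step (tolerance 0.1), so no reads were recovered.

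Values were taken as log2(FPKM + 1), a scale that understates changes of low genes. Group means over all 9 libraries were fitted in R 4.3.3 by limma 3.58.1, with a trended eBayes step, for the 12317 genes that reached 1 FPKM in 3 or more libraries, with Benjamini-Hochberg adjustment (threshold 0.05). Libraries were grouped and numbered by their titles. Promoter sequences are from RefSeq (GRCh38.p14).

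The members and the gene lists were chosen with earlier results of these data known. Named genes are the members, the other S100 genes, up to 4 tested genes per further list and up to 6 neighbours with the largest differences from si-NC, and the 2 genes nearest each member in profile. Some genes of the lists are not reported here. Cell markers named singly were chosen after their values were seen. Alternatives were quantile normalization, median centring, a pseudocount of 0.1, a minimum of 5 FPKM or no filter, a replicate block, fitting only the groups compared, limma without trend, a fold minimum of 2, and leaving out each library.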

Additional observations from a re-analysis of the deposited data

Results flagged for a closer look

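S100A9 was higher in si1-BCLIN25 than in si2-BCLIN25 by 0.318 on the log2(FPKM + 1) scale, and S100A8 by 0.505. Both were singled out because limma called the difference between the siRNAs, with 3 of 3 si1-BCLIN25 libraries above all 3 si2-BCLIN25 libraries for each gene. The members were chosen with these levels known, so the calls are no independent support, and they were lost in 8 of 17 alternatives for S100A8 and 9 of 17 for S100A9. Both genes were higher than in si-NC under either siRNA.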

How the results depend on the processing

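Against si-NC, S100A2, S100A4, S100A6, S100A7, S100A8, S100A9, S100A10, S100A14 and S100A16 kept their direction and call in both siRNA groups under the 17 alternatives that give a difference. S100A11 did not: in si1-BCLIN25 its call was lost or its direction reversed in 13 of the 17, and under quantile normalization its difference was -0.0868. Between the siRNAs, S100A8 kept its direction (0.462 to 0.526) and lost its call in 8 of 17 alternatives, and S100A9 (0.143 to 0.364) in 9 of 17. S100A14 (-0.364 to -0.272) was called in 2 of 17. The causes were not tested.

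For si1-BCLIN25 against si2-BCLIN25, 72 genes and 2 members were called. With no filter these counts were 3 and 0, with limma without trend 13 and 0, with a replicate block 6 and 0, and with a fold minimum of 2 they were 0 and 0. A minimum of 5 FPKM gave 110 genes, fitting only the 2 groups gave 246 genes, and quantile normalization gave 1 member. Leaving out 1 library gave 2 to 132 genes and 0 to 3 members, and 0 to 3 annexin and AHNAK genes and 0 to 1 transcription factors. Those lists also had 0 calls each between the siRNAs with no filter, without trend, with the replicate block and with the fold minimum. With only the 2 groups, 1 of the other S100 partners and 1 receptor were called between them.

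Against si-NC, in each siRNA group, no filter gave 5 calls among S100 genes outside the members and 2 among fused S100 genes. Fused S100 genes had 0 calls at a minimum of 5 FPKM and 2 under quantile normalization. The fold minimum left 572 genes for si1-BCLIN25 and 560 for si2-BCLIN25. In each it left 5 members, 0 other S100 genes and 0 fused S100 genes. It also left 1 annexin or AHNAK gene, 1 of the other S100 partners, 1 receptor and 6 transcription factors in each. The ratio of S100A8 to S100A9 in si-NC was 0.0165 from FPKM + 1.

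Deviations of same-numbered libraries of different groups had correlations of -0.164 to 0.139 (9 pairs). Those of differently numbered ones were -0.193 to 0.218 (18 pairs). These ranges show no pairing by number. With deviations taken from means of 3 libraries, they cannot exclude it. With the replicate block, calls against si-NC numbered 7665 genes for si1-BCLIN25 and 7626 for si2-BCLIN25, with 9 members each. Precision is limited by 3 libraries a group and unknown depth.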

Other observations

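For each S100A gene, the tested genes nearest in profile were found by the root mean square distance between values of log2(FPKM + 1), each gene centred on its mean over the 9 libraries. The distances rank profiles that share libraries and mostly reflect the contrast of the siRNA groups with si-NC, so they are given as a description. Values were not scaled, so genes with larger changes tend to have larger distances, and distances are not compared between members.

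Nearest to S100A9 were CFB, complement factor B (distance 0.0845), and CA2, a carbonic anhydrase (0.0895). CFB averaged 7.81 FPKM in si1-BCLIN25 and 6.003 FPKM in si2-BCLIN25, against 0.963 FPKM in si-NC. CA2 averaged 55.8 FPKM in si1-BCLIN25 and 50.8 FPKM in si2-BCLIN25, against 10.99 FPKM in si-NC. Nearest to S100A7 were IGFBP3, a binding protein of insulin-like growth factors (0.168), and SERPINB13, a protease inhibitor of squamous epithelium (0.182). IGFBP3 averaged 428 FPKM in si1-BCLIN25 and 385 FPKM in si2-BCLIN25, against 27.2 FPKM in si-NC.

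Nearest to S100A8 were the cancer-testis genes SPANXA1 (0.208) and SPANXC (0.238), whose near-identical copies can share reads. S100A14 was nearest to CA9, a carbonic anhydrase induced by low oxygen (0.147), and PIR, pirin (0.155). CA9 was, like S100A14, highest in si2-BCLIN25, with means of 3.61 FPKM in si1-BCLIN25 and 5.36 FPKM in si2-BCLIN25, against 0.300 FPKM in si-NC. S100A4 was nearest to RASSF5 (0.158) and KLK9, a kallikrein (0.164).

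The other members, whose differences from si-NC were smaller, had smaller distances to their nearest genes, as the unscaled measure tends to give. The nearest genes were RPS14 (0.0171) and NAPA (0.0229) for S100A11, and COL4A2 (0.0228) and SERINC2 (0.0334) for S100A16. For S100A2 they were GNL3L (0.026) and WDR33 (0.0272). They were FOXA1 (0.0275) and EAPP (0.0276) for S100A6, and MSANTD3 (0.0402) and GPN1 (0.048) for S100A10.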
